A study of Rattus norvegicus with 6 samples.

Results

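A set of 10 genes of fat cell identity was followed through the first week after birth in the rat Achilles tendon: 3 transcription factors of the fat cell programme (Cebpa, Cebpb and Pparg), 4 secreted products of fat tissue (Adipoq, Cfd, Lep and Retn), 2 lipid carriers (Fabp4 and Cd36) and the thermogenic carrier Ucp1. They were chosen by name, and each gene was read from the brightest probe set that the array annotation assigned to it alone. Of the 10 genes, 9 had such a probe set, out of 14217 genes in all, and Retn was not analysed here. Tendons of rats on post-natal day 7 were set against those of rats on post-natal day 1, with 3 arrays at each age. The RNA on an array came from a pool of at least 2 animals, so errors and p-values describe the spread between pools. No treatment or genetic change is named for either age, and the comparison asks how transcript levels of a tendon at birth compare with those after its first week of growth.

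Fat cells form in a known sequence of transcription factors. C/EBP-beta, the product of Cebpb, appears early and helps to switch on PPAR-gamma (Pparg) and C/EBP-alpha (Cebpa), which then maintain each other and drive the genes of the mature cell. Among those genes are the hormone adiponectin (Adipoq), the serine protease adipsin (Cfd) and the fatty acid-binding protein Fabp4, while the fatty acid receptor Cd36 and Fabp4 are also made by capillary endothelium and macrophages. Leptin (Lep) signals the size of the fat store, and Ucp1 uncouples respiration in brown fat.

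Of the 9 measured genes, Adipoq, Cfd and Cebpa rose on day 7, while the 6 others passed in neither direction, among them Pparg, Fabp4 and Cd36. Lep and Ucp1 lay near background on all 6 arrays. In total, 3 of 9 were higher and 0 lower at an adjusted p under 0.05 (limma, Benjamini-Hochberg over 31042 probe sets). At that threshold 1.93% of all 14217 genes were higher (274) and 3.15% lower (448), which is 5.08% in either direction. After quantile normalization the split over all genes was 352 higher and 320 lower, and the same count of 3 higher and 0 lower held for the 9 genes. At an unadjusted p under 0.05, 5 of the 9 were higher and 1, Cebpb, lower. Of all 14217 genes, 1506 were higher and 2411 lower at that unadjusted threshold (limma). All day 7 arrays lay above all day 1 arrays for 4 of the 9 genes (Adipoq, Cfd, Cebpa and Pparg), against 14.0% of all genes, and below them for 1 (Cebpb), against 19.1%. The median log2 change of the 9 genes was 0.79, beside -0.01 over all genes. A value was taken as near background when it was under 2 times the highest probe set for a bacterial trp transcript on the same array, a limit of 8.36 to 9.51 intensity units.

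**Figure D1:**
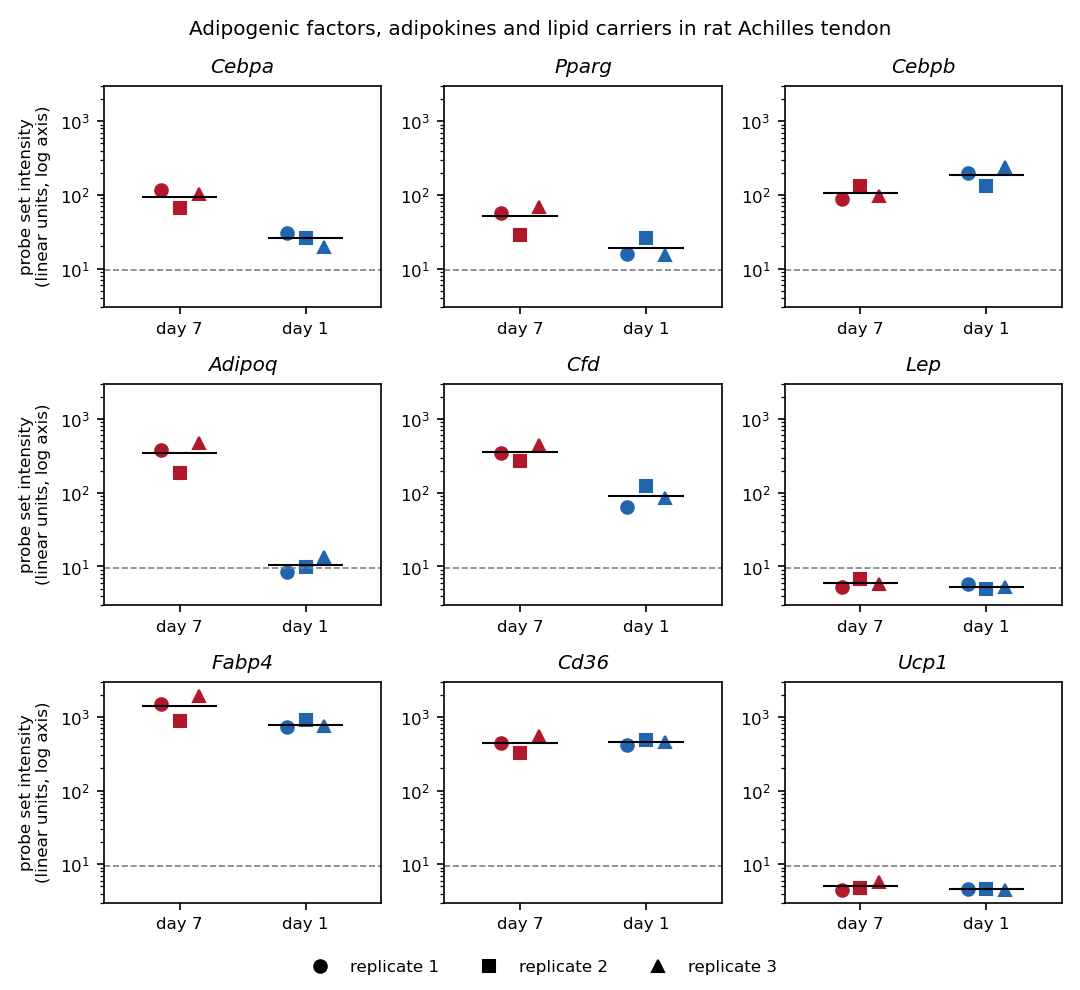
Probe set intensity (linear units on a log axis) of the 9 measured genes on each array, day 7 in red on the left and day 1 in blue on the right; symbols give the replicate number, black bars the mean of 3 arrays, and the dashed line the highest near-background limit (9.51). Adipoq read 188 to 477 on day 7, against 8.47 to 13.5 on day 1, whereas the Lep and Ucp1 points lay below the line at both ages.

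Among the transcription factors, Cebpa was higher on day 7, while Pparg and Cebpb did not pass the test. Cebpa read 116, 67.1 and 101 on day 7 (replicates 1, 2 and 3) and 30.9, 26.5 and 19.97 on day 1. The lowest day 7 array was thus above the highest day 1 array. Its mean was 94.99 ± 25.3 on day 7 and 25.8 ± 5.49 on day 1 (SD, n = 3 each), a log2 change of 1.83 (SE 0.23; limma adjusted p = 0.0141), or 3.55-fold. Cebpa was the only one of the 9 genes with several probe sets, 5 in number, and 4 of them were called higher. The changes of the 3 other called probe sets were 0.98, 1.28 and 1.65 on the log2 scale (limma adjusted p = 0.0258, 0.0309 and 0.0308). The fifth read 5.09, 5.27 and 5.34 on day 7 and 4.21, 4.59 and 4.998 on day 1, near background throughout, and its log2 change was 0.16 (limma adjusted p = 0.420). With the mean of all 5 the log2 change of Cebpa was 1.18. The call was lost without day 7 replicate 1 (limma adjusted p = 0.0794).

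Pparg, the nuclear receptor at the centre of fat cell formation, read 56.8, 28.6 and 67.9 on day 7 against 15.8, 25.8 and 15.3 on day 1. The ages did not overlap, but day 7 replicate 2 stood only just above day 1 replicate 2. The log2 change was 1.33 (SE 0.33, 95% interval 0.58 to 2.09) with a limma adjusted p of 0.0669, short of the threshold. It passed in 1 of the 6 fits that left out 1 array, the fit without day 7 replicate 2. There the change was 1.70 (limma adjusted p = 0.0268), while the highest limma adjusted p of the 6 fits was 0.205. Of the 9 other alternative settings, it passed in 3.

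Cebpb, the early factor, read 86.9, 131 and 97.3 on day 7 against 198, 132 and 237 on day 1. The arrays numbered 2 of the 2 ages were nearly level, and the other 4 arrays lay well apart. The log2 change was -0.82 (SE 0.24, 95% interval -1.37 to -0.28; limma adjusted p = 0.0959). It passed in 1 of the 6 fits that left out 1 array, without day 1 replicate 2, at -1.06 (limma adjusted p = 0.0428). The highest limma adjusted p of the 6 fits was 0.256, and it passed in 2 of the 9 other alternative settings. Within each array the log2 ratio of Cebpa to Cebpb was 0.42, -0.95 and 0.06 on day 7 and -2.64, -2.27 and -3.50 on day 1. Each day 7 array lay above each day 1 array, and the mean was higher by 2.65 on day 7. Because every day 7 array was higher for Cebpa and lower for Cebpb, the ratio had to separate the ages. Its exact permutation p of 0.1, two-sided, the smallest that 3 against 3 arrays allow, was fixed by this and adds no support. This ratio was among 3 examined, all chosen after the values were seen, and each of the 3 had the same p.

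The start regions of these 2 genes are shown because Cebpa rose while Cebpb, without passing the test, read lower on all 3 day 7 arrays. Each is the 250 bases before the annotated start in RefSeq (rat assembly GRCr8, plus strand), written 5′ to 3′, with capitals where a script found one of 4 motifs on either strand. The Cebpa window is chr1:96896334-96896583 and the Cebpb window is chr3:176816755-176817004.
Cebpa: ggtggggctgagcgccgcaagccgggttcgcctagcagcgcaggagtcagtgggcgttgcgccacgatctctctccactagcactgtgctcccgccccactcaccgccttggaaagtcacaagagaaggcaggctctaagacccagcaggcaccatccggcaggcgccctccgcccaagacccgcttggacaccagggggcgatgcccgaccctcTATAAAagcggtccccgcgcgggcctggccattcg
Cebpb: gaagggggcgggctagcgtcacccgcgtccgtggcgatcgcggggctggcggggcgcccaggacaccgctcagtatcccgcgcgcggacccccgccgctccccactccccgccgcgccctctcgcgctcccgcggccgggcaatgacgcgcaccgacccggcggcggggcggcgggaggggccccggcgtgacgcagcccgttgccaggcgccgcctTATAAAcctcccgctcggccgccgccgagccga
Both hold a TATA box (TATAAA), 35 bases before the start in Cebpa and 33 in Cebpb, a motif found in 12.9% of the 33469 windows in the table. Neither holds the C/EBP core searched (TTGCNNAA, in 9.22% of windows), the CCAAT box (34.0%) or a direct repeat of the kind bound by PPAR with its partner RXR (2 copies of AGGNCA with 1 base between them, 0.368%). Only exact matches to these letters were sought, so the search does not show that variant sites are absent.

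Besides Cebpa and Cebpb, the family list held Cebpd, Cebpg, Cebpe and the inhibitory partner Ddit3, and none of these 4 was called. Cebpd, which acts early beside Cebpb, averaged 40.6 ± 6.99 on day 7 and 47.6 ± 13.6 on day 1 (SD, n = 3 each), a log2 change of -0.20 (95% interval -0.68 to 0.28; limma adjusted p = 0.618). Ddit3 had a log2 change of 0.19 (limma adjusted p = 0.597). Of 28 adipogenic regulators, Cebpd among them, 1 rose and 0 fell, beside the 5.08% of all genes called in either direction (limma; 6 higher and 2 lower at an unadjusted p under 0.05); their median log2 change was 0.10. The one that rose was Srebf1, a transcription factor of fatty acid synthesis, at 157, 125 and 176 on day 7 against 80.5, 84.5 and 76.2 on day 1 (1.87-fold; limma adjusted p = 0.0238). Its call held in 2 of the 6 fits that left out 1 array, and its direction in all 6.

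Of 16 partners, relatives and cofactors, 0 rose and 1 fell (limma; 2 higher and 5 lower at an unadjusted p under 0.05), and their median log2 change was -0.15. Rxrg, a retinoid X receptor that pairs with PPARs and is abundant in skeletal muscle, read 49.5, 58.2 and 51.1 on day 7 against 121, 146 and 195 on day 1. It fell by 1.50 on the log2 scale (SE 0.18; limma adjusted p = 0.0141), and by 0.76 with the mean of its probe sets. The call was lost without day 7 replicate 1 (limma adjusted p = 0.0794). The ubiquitous partner Rxra read 12.5, 12.7 and 14.6 on day 7 against 10.9, 16.4 and 11.6 on day 1, with overlap and a log2 change of 0.05 that turned to -0.02 after quantile normalization. The coactivator Ppargc1a had a log2 change of -0.26 (limma adjusted p = 0.361).

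Among 17 extracellular signals of fat cell formation, 1 rose and 2 fell, with a median of -0.09. Dlk1, a surface protein that restrains fat cell differentiation, read 1009, 1097 and 840 on day 7 against 1844, 2089 and 2137 on day 1, and fell by 1.05 on the log2 scale (limma adjusted p = 0.0141). Bmp4, a growth factor that commits progenitors to the fat lineage in mouse culture, fell by 0.98 (limma adjusted p = 0.0314). Without 1 array at a time, the Dlk1 call held in 4 of 6 fits and the Bmp4 call in 2. Wnt5b, a Wnt ligand, rose 1.92-fold (limma adjusted p = 0.0381), a call kept in 1 of the 6 fits without 1 array.

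**Figure D2:**
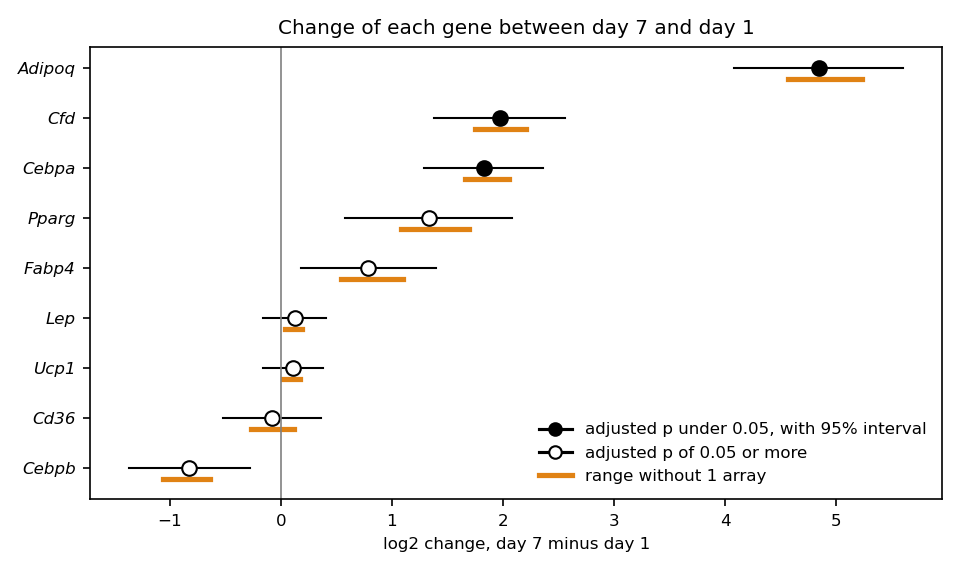
Log2 change (day 7 minus day 1) of the 9 measured genes, with the 95% interval from limma in black and the range over the 6 fits that each leave out 1 array in orange. Filled points passed an adjusted p of 0.05 (Adipoq 4.84, Cfd 1.97, Cebpa 1.83); the intervals of Pparg, Fabp4 and Cebpb lie off 0 although these genes did not pass after adjustment.

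The adipokines Adipoq and Cfd had the largest log2 changes of the 9 genes. Adiponectin, an insulin-sensitizing hormone of fat cells, read 385, 188 and 477 on day 7 against 8.47, 9.72 and 13.5 on day 1. The day 1 arrays stood at the edge of background, with replicate 1 below the near-background limit, and the lowest day 7 array was far above each of them. The mean was 349.9 ± 148 on day 7 and 10.6 ± 2.63 on day 1 (SD, n = 3 each), a log2 change of 4.84 (SE 0.33; limma adjusted p = 0.00400). Because day 1 was so dim, the size depends on the constant added before the logarithm: with 16 in place of 1 it was 3.69. The call held in each of the 6 fits that left out 1 array (limma adjusted p from 0.00137 to 0.0489).

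Adipsin, the protease that activates factor B in the alternative complement pathway, was well above background at both ages. Cfd read 345, 272 and 438 on day 7 against 63.7, 122 and 85.2 on day 1. No day 7 array overlapped with day 1, and its mean was 352 ± 83.5 on day 7 and 90.4 ± 29.6 on day 1 (SD, n = 3 each). It rose 3.92-fold, a log2 change of 1.97 (SE 0.26; limma adjusted p = 0.0143). The call was lost without day 1 replicate 1 (limma adjusted p = 0.052) and without day 7 replicate 1 (limma adjusted p = 0.0833).

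Leptin was at background at both ages. Lep read 5.27, 6.82 and 5.69 on day 7 and 5.81, 4.99 and 5.21 on day 1, all under the near-background limit of 8.36 to 9.51, so no fold change is given. This single probe set does not show whether leptin transcripts were absent.

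The start regions of the 2 adipokine genes that rose are given for the same window, both on the minus strand. The Adipoq window is chr11:91240170-91240419 and the Cfd window is chr7:10465497-10465746.
Adipoq: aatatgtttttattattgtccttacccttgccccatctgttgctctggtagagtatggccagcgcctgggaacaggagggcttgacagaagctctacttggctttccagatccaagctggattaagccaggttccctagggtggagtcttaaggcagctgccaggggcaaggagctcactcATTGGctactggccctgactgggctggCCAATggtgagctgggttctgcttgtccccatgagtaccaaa
Cfd: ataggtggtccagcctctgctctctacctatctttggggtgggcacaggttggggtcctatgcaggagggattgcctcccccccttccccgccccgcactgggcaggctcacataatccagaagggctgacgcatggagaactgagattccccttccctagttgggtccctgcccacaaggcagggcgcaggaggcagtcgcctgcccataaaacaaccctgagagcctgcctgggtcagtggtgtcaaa
The Adipoq window holds 2 CCAAT boxes, 1 on each strand, the nearer one 42 bases before the start. It holds none of the other 3 motifs, and the Cfd window holds none of the 4. Of the 10 genes, 9 matched the table, with 10 windows (Retn included, Pparg with 2, Fabp4 unmatched); over these, the C/EBP core was present in 2 and the PPAR-RXR repeat in 0.

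Several other genes listed as adipokines rose as well. Of 24 measured adipokines outside the 10 genes, 8 rose and 1 fell, beside 1.93% higher and 3.15% lower of all genes. The median log2 change of the 24 was 0.29. Agt, which encodes angiotensinogen, read 74.9, 45.9 and 102 on day 7 against 11.9, 8.90 and 13.3 on day 1 (log2 change 2.55; limma adjusted p = 0.0134). Rbp4, the retinol carrier, rose 3.87-fold (limma adjusted p = 0.0186), and Rarres2, the precursor of chemerin, 1.82-fold (limma adjusted p = 0.0282). The C1q/TNF-related proteins share the domain plan of adiponectin, and 5 of the 7 measured were higher: C1qtnf1, C1qtnf2, C1qtnf3, C1qtnf5 and C1qtnf7, with log2 changes of 1.25, 1.30, 1.20, 1.49 and 1.29. Their pattern over the day 7 arrays was unlike that of Adipoq. Of these 5, 4 were highest on day 7 replicate 1, whereas Agt, Rbp4 and Rarres2 were, like Adipoq, highest on replicate 3 and lowest on replicate 2. C1qtnf2, for instance, read 532, 406 and 349 on day 7 against 175, 159 and 178 on day 1. On day 7, C1qtnf1, C1qtnf2 and C1qtnf3 decreased in the order of replicates 1, 2 and 3. The summed tendon markers described below had the same order (63084, 53153 and 48436), but C1qtnf5 and C1qtnf7 did not. The part of tendon cells in these values was not tested. Without 1 array at a time, the calls held in 5 of 6 fits for Agt, in 4 for C1qtnf1 and C1qtnf2, in 2 for Rbp4, Rarres2, C1qtnf3 and C1qtnf5, and in 1 for C1qtnf7. Over the list, leaving out day 7 replicate 1 gave 0 of 24 higher, day 1 replicate 1 gave 1, day 1 replicate 3 gave 3 and day 7 replicate 3 gave 4. Over all genes the same 4 fits gave 4, 26, 61 and 87 higher, against 274 with all arrays.

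The one adipokine of this list that fell was Angptl4, a PPAR target that inhibits lipoprotein lipase. It read 80.8, 68.5 and 116 on day 7 against 228, 508 and 345 on day 1, and fell by 1.97 on the log2 scale (SE 0.30; limma adjusted p = 0.0222), a call kept in 4 of the 6 fits without 1 array. Angptl4, Rarres2, C1qtnf3, C1qtnf5 and C1qtnf7 were named after their values were seen.

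Of 13 adipokine receptors and their proximal signalling genes, 1 rose and 0 fell (limma; 1 higher and 0 lower at an unadjusted p under 0.05); the median log2 change was 0.14. The receptor that rose was that of leptin. Lepr read 12.2, 12.1 and 11.5 on day 7 and 8.82, 7.202 and 6.07 on day 1. All 3 day 1 arrays were near background, so no fold change is given for this probe set. Lepr was called higher on day 7 (limma adjusted p = 0.0482). The call did not survive in any of the 6 fits that left out 1 array, was lost after quantile normalization (limma adjusted p = 0.0744) and with the mean of its probe sets, where the log2 change was 0.24 (limma adjusted p = 0.144). The adiponectin receptors Adipor1 and Adipor2 had log2 changes of 0.18 and -0.02 (limma adjusted p = 0.398 and 0.962), the second of which was 0.09 after quantile normalization.

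Of 9 measured complement genes around adipsin, 0 rose and 1 fell (limma; 0 higher and 1 lower at an unadjusted p under 0.05), and 4 were near background on all 6 arrays. C3, whose cleavage the pathway serves, read 5.30, 6.11 and 5.56 on day 7 and 4.79, 6.16 and 6.11 on day 1, near background throughout. Cd55, an inhibitor that dissociates the C3 convertase, read 82.1, 131 and 109 on day 7 against 193, 185 and 231 on day 1, and fell by 0.93 on the log2 scale (limma adjusted p = 0.0377). Its call was lost after quantile normalization and in 5 of the 6 fits without 1 array.

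**Figure D3:**
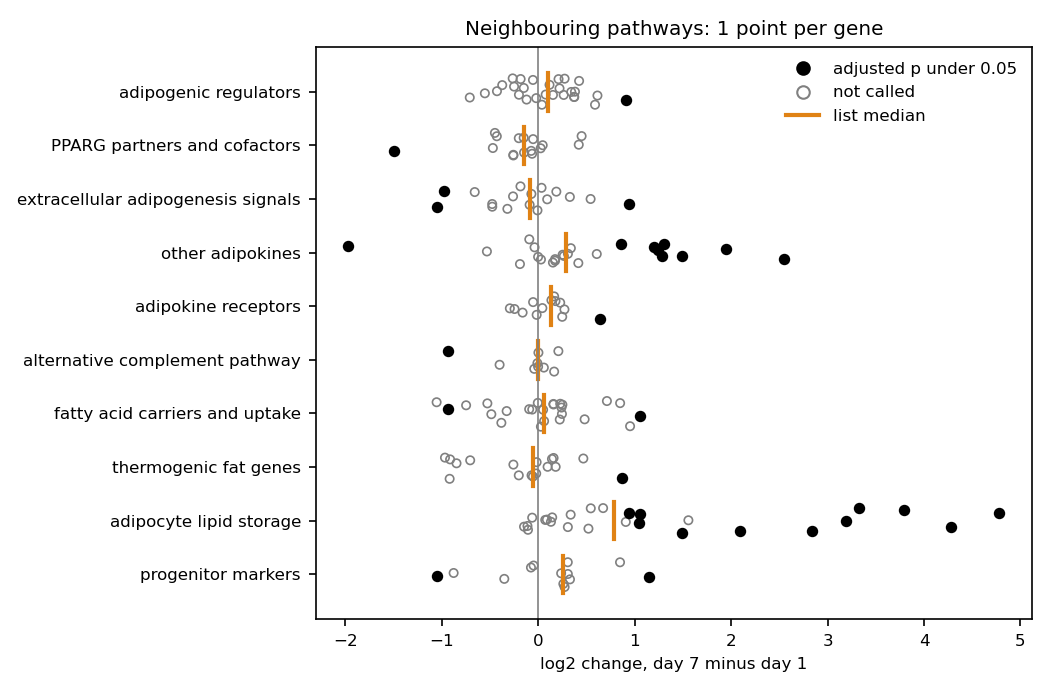
Log2 change (day 7 minus day 1) of the genes in 10 lists around the fat cell programme, 1 point per gene, filled where the adjusted p was under 0.05; orange bars mark list medians, and vertical scatter within a row has no meaning. The lists of adipocyte lipid storage (11 of 26 higher) and other adipokines (8 of 24 higher) hold most of the filled points on the right.

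The 2 lipid carriers were bright at both ages, and neither passed the test. Fabp4, the main fatty acid-binding protein of fat cells, read 1472, 874 and 1915 on day 7 and 717, 893 and 744 on day 1. Day 7 replicate 2 lay within the day 1 range and the other 2 day 7 arrays lay above it. The log2 change was 0.79 (SE 0.26, 95% interval 0.18 to 1.40; limma adjusted p = 0.135). Without day 7 replicate 2 it was 1.10 (limma adjusted p = 0.0313). Fabp4 passed in only 1 of the 6 fits without 1 array, with a limma adjusted p of up to 0.311. It passed in 1 of the 9 other alternative settings. Cd36, the fatty acid receptor, read 437, 322 and 551 on day 7 and 420, 480 and 454 on day 1, so the day 7 arrays straddled those of day 1. Its log2 change was -0.08 (SE 0.19; limma adjusted p = 0.842), and the 95% interval of -0.52 to 0.36 excludes a 2-fold change in either direction. After quantile normalization the change was 0.0074. Within arrays the log2 ratio of Fabp4 to Cd36 was 1.75, 1.44 and 1.79 on day 7 and 0.77, 0.90 and 0.71 on day 1, and its mean was higher by 0.87 on day 7 (exact permutation p = 0.1, two-sided, the smallest possible).

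Related genes of fatty acid binding and uptake went both ways. Of 25 measured, 1 rose and 1 fell, with a median of 0.06, and 6 were near background on all 6 arrays. Lpl, the lipase that releases fatty acids from lipoproteins, read 1382, 1120 and 1885 on day 7 against 672, 594 and 816 on day 1 (2.07-fold; limma adjusted p = 0.0383), a call kept in 1 of the 6 fits without 1 array. Acsl3, which activates fatty acids, fell by 0.94 on the log2 scale (limma adjusted p = 0.0282), a call kept in 2 of the 6. The muscle and epidermal relatives of Fabp4, Fabp3 and Fabp5, had log2 changes of -0.53 and -0.49 (limma adjusted p = 0.228 and 0.208). Of 26 lipid storage genes of fat cells, 11 rose and 0 fell (limma), beside 1.93% higher and 3.15% lower of all genes. At an unadjusted p under 0.05, 17 of the 26 were higher and 0 lower (limma), and their median log2 change was 0.79. Plin1, the coat protein of fat cell droplets, read 291, 128 and 419 on day 7 against 6.99, 6.13 and 12.3 on day 1. Thrsp, Pck1 and Gpd1, which serve fatty acid and glycerol supply, had log2 changes of 3.79, 4.28 and 3.19 (limma adjusted p = 8.95e-04, 0.0111 and 0.0141). Thrsp read 6.68, 9.23 and 9.49 on day 1, near background on 2 of 3 arrays. Over the alternative settings that kept all arrays or left out both numbered 2, the lowest changes were 2.565, 3.635 and 1.829. Without 1 array at a time, the call held in 6 of 6 fits for Thrsp, in 5 for Plin1 and Pck1 and in 4 for Gpd1. With a constant of 16 in place of 1, 5 of the 26 were higher. Leaving out day 7 replicate 1 gave a list count of 1 higher, leaving out day 1 replicate 1 gave 3 and leaving out day 1 replicate 3 gave 7, with 0 lower in each. Over all genes these fits gave 4, 26 and 61 higher, against 274 with all arrays.

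The thermogenic gene Ucp1 was at background on each array, at 4.48, 4.83 and 5.79 on day 7 and 4.58, 4.63 and 4.48 on day 1. No fold change is given. Of 17 other genes of brown and beige fat, 1 rose and 0 fell (limma; 2 higher and 4 lower at an unadjusted p under 0.05); the median log2 change was -0.06 and 4 were near background on all 6 arrays. Kcnk3, a potassium channel, read 21.2, 20.98 and 30.5 on day 7 against 12.5, 13.1 and 12.3 on day 1 (limma adjusted p = 0.0313), a call kept in 1 of the 6 fits without 1 array. Cidea, a lipid droplet protein of brown fat in the mouse, read 110, 186 and 108 on day 7 against 217, 196 and 393 on day 1, a log2 change of -0.97 that did not pass (limma adjusted p = 0.117). Ucp2, Ucp3 and Cpt1b, named after their values were seen, had log2 changes of -0.92, -0.85 and -0.91 (limma adjusted p = 0.0623, 0.124 and 0.111). Of 19 skeletal muscle markers on the same arrays, 4 fell, Myh3, Myh8 and Myog among them, 1 (Myh2) rose and 14 were not called. Without 1 array at a time, the calls of Myh3, Myh8, Myog and Myh2 held in 1, 0, 2 and 2 of 6 fits. The median log2 change of the 19 was -0.80, and the part of muscle in these values was not tested.

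The arrays of day 7 differed among themselves in the same way for most of the genes. Of the 7 above background, 6 had day 7 replicate 2 as the day 7 array nearest to the day 1 mean, against 44.9% of all 12117 genes above background. Without that array 5 of the 9 genes were higher (Fabp4 and Pparg in addition), beside 200 higher and 377 lower of all genes. Without day 7 replicate 1 only Adipoq was called among the 9, with 4 higher and 0 lower of all genes. Day 7 replicate 3, where Adipoq, Cfd, Pparg, Fabp4 and Cd36 were highest, also had the highest 3′ to 5′ ratio of beta-actin, 3.35, against 2.40 and 2.17 on the other day 7 arrays and 1.80 to 2.85 on day 1. The 3′ to 5′ ratio of Gapdh was instead highest on day 7 replicate 1, at 2.09, 1.73 and 2.00 on the day 7 arrays and 1.74, 1.80 and 1.75 on day 1. The part of RNA quality in these values was not tested.

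Markers of other cell types on the same arrays moved as follows. Of 12 adipocyte markers outside the 10 genes, 8 rose and 0 fell (limma; 10 higher and 0 lower at an unadjusted p under 0.05). All but Adrb3, 11 of the 12, also stand in the lipid storage list, so this is largely the same count again. With day 7 replicate 1 left out the count of adipocyte markers higher was 1, with day 1 replicate 1 left out 3 and with day 1 replicate 3 left out 5. Over all genes these fits gave 4, 26 and 61 higher. The summed intensity of the 12 adipocyte markers was 2576 to 5164 on day 7 and 990 to 1368 on day 1. Lpl alone read 1120 to 1885 on day 7 and 594 to 816 on day 1, the largest part of each day 1 sum. On day 1 the defining marker Cidec was near background on 3 of 3 arrays and Plin1 on 2 of 3, while Plin4 read 77.0 to 118. In such bulk RNA, a change in the number of cells of a type and a change in RNA per cell cannot be told apart. Schwann and nerve markers summed to 6036, 2515 and 9158 on day 7 and 2174 to 2619 on day 1, in the same order of the day 7 arrays as Adipoq, with S100b higher and Ngfr lower of 10 (limma; 5 higher and 1 lower at an unadjusted p under 0.05). Without day 7 replicate 2, 5 of the 10 were higher and 0 lower. Skeletal muscle markers summed to 45835 to 64418 on day 7 and 68123 to 83871 on day 1, with 12 of 19 lower and 1 higher at an unadjusted p under 0.05. Without day 7 replicate 2, 8 of the 19 were lower and 0 higher by adjusted p.

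Endothelial markers, from a cell type that also makes Cd36 and Fabp4, summed to 2978 to 3734 on day 7 and 2482 to 3229 on day 1. Egfl7 was higher and 0 lower of 12, a call lost in each fit without 1 array. At an unadjusted p under 0.05 (limma), 4 of the 12 were higher and 0 lower. Macrophage markers summed to 1824 to 2229 on day 7 and 2003 to 2995 on day 1, with Adgre1 higher and 0 lower of 13 (limma; 4 lower at an unadjusted p under 0.05). Tendon markers summed to 48436 to 63084 on day 7 and 27622 to 45798 on day 1. Of 10, 2 (Dcn and Comp) were higher and 1 (Egr1) lower, with 6 higher and 1 lower at an unadjusted p under 0.05 (limma). Without 1 array at a time, the calls of Dcn, Comp and Egr1 held in 1, 2 and 4 of 6 fits. The defining markers Scx, Tnmd, Fmod and Col1a1 were far above background on all 6 arrays. The part of these cell types in the changes of Adipoq, Cfd, Cebpa and Fabp4 was not tested.

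**Figure D4:**
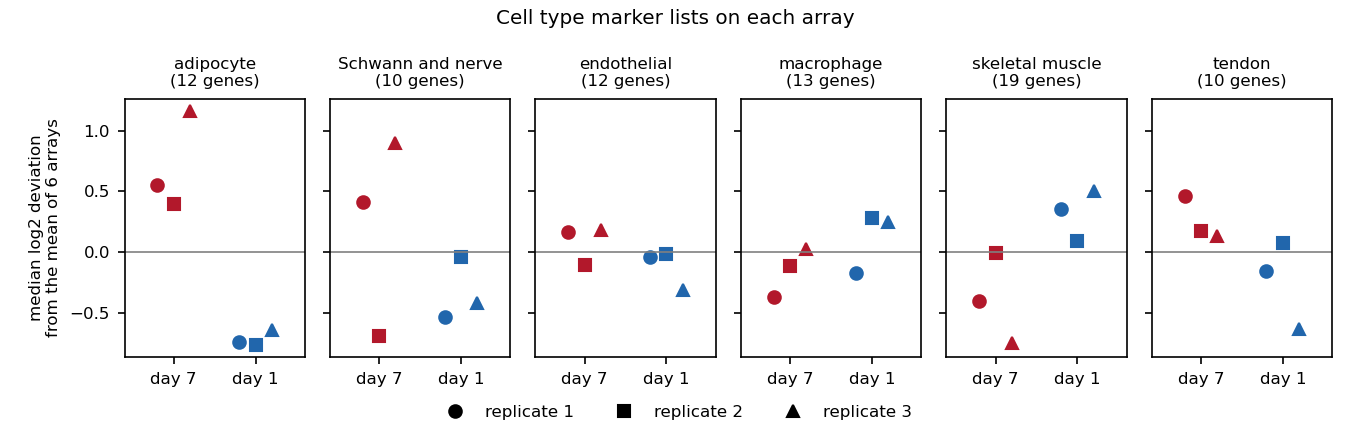
Median log2 deviation of 6 cell type marker lists from the mean of the 6 arrays, for each array, day 7 in red and day 1 in blue, with symbols for the replicate number. The adipocyte list separated the ages (0.55, 0.39 and 1.16 on day 7 against -0.74, -0.77 and -0.65 on day 1), while in the nerve list day 7 replicate 2 (-0.69) fell below the day 1 arrays.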

How the data were processed

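Labelled RNA from 6 pools of rat Achilles tendon (3 on day 7, 3 on day 1) had been hybridized to an Affymetrix rat expression array. The deposited values are linear intensities, 1 for each probe set of each array. Per the submitters' processing notes, MAS5 and RMA are named, without a role or version. Background correction and scaling of the deposited intensity values: not given in the sources used here. A remaining scale difference between the ages can move many genes, which normalization alternatives address.

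Of 31099 probe sets, 57 controls were left out. The platform annotation gave 20826 of the 31042 tested 1 gene symbol, 436 several and 9780 none. Of the 20826, 20758 matched a RefSeq gene table of GRCr8 by gene identifier and 0 symbols changed. The brightest probe set stood for each of 14217 genes. Values became log2(value + 1) and were fitted with limma 3.58.1 (lmFit, eBayes, R 4.3.3), two-sided, adjusted by Benjamini-Hochberg over all probe sets, with a threshold of 0.05. Log2 changes are day 7 minus day 1. The fit was first tested on simulated data.

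The genes and lists were chosen with earlier results of these data known, so no list count is independent support. Named genes were the 9 measured, a fixed set of 14 partners, and of each list the genes called, or the 4 with the smallest adjusted p where more than 4 were called; exceptions are said to be later choices. Alternatives were quantile normalization, median centring, probe sets brighter than the median, array weights, averaging all probe sets of a gene, robust variances with an intensity trend, a block for replicate number, 16 as pseudocount, other probe sets, each array left out in turn and, added after seeing the data, both arrays numbered 2 left out. Precision is limited by the number of arrays.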

Additional observations from a re-analysis of the deposited data

How the results depend on the processing

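Of the 9 genes, 3 were higher and 0 lower, and each array left out in turn gave 1 to 5 higher and 0 to 1 lower. Over all genes these fits gave 4 to 271 higher and 0 to 382 lower, against 274 and 448. With array weights 538 genes were higher and 897 lower. Of the 9 genes, 4 were then higher, with Pparg in addition (limma adjusted p = 0.0356), and 1, Cebpb, was lower (limma adjusted p = 0.0497). With a pseudocount of 16, 182 genes were higher. Without both arrays numbered 2, 5 of the 9 genes were higher and 1 lower, beside 228 higher and 609 lower of all genes. The causes were not tested.

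The labels do not say whether equal replicate numbers mark paired samples. Deviations of same-numbered arrays correlated at 0.05, -0.25 and -0.14, and those of differently numbered arrays at -0.11 to 0.25. With deviations taken from means of 3 arrays, such values cannot decide whether the samples were paired. With the replicate number as a block, 25 genes were higher and 8 lower, and of the 9 genes only Adipoq was called (limma adjusted p = 0.0104; 0.0540 for Cebpa and 0.0602 for Cfd), with 5 of 26 lipid storage genes and 1 of 24 other adipokines higher.

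Direction changed only in genes that were not called. Quantile normalization turned Cd36 (0.0074), Rxra (-0.024) and Adipor2 (0.092), and array weights turned C3 (0.061). Without both arrays numbered 2, Lep was at -0.0056, Cd36 at 0.17 and C3 at 0.0026. Leaving out 1 array gave log2 changes of -0.26 to 0.12 for Cd36, -0.058 to 0.22 for Rxra, -0.16 to 0.060 for Adipor2, -0.10 to 0.051 for C3, -0.35 to 0.016 for Cebpd and -0.025 to 0.35 for Ddit3. Lep, Ucp1, C3 and the day 1 values of Lepr and Cidec lie near background, where a fold change is not reliable. The day 1 values of Thrsp and Plin1 were near background on 2 of 3 arrays, and those of Adipoq and Agt on 1 of 3.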

Other observations

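Markers used for fat cell progenitors and stromal cells did not move as one group. Of 13 measured, 1 rose and 1 fell, with a median log2 change of 0.26. Thy1, a surface protein of stromal cells, read 1018, 787 and 723 on day 7 against 447, 452 and 261 on day 1 (log2 change 1.15; limma adjusted p = 0.0429), a call kept in 1 of the 6 fits without 1 array. The other was Dlk1, described above. Pdgfra, a receptor of stromal progenitors, read 1209, 1106 and 1063 on day 7 and 803, 1139 and 820 on day 1, with overlap between the ages (limma adjusted p = 0.293). Pdgfra was named after its values were seen.

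Of 7108 genes brighter than the median, those whose log2 values followed Adipoq most closely over the 6 arrays were Gng10, Pck1 and Fgl2, with Pearson r of 0.996, 0.994 and 0.992. For Cfd they were Abca1, Plpp3 and Arf4 (0.995, 0.994 and 0.991), and for Cebpa they were Gna12, Rab33b and Nadk (0.995, 0.993 and 0.992). The 6 arrays fall into 2 ages, so these values rest mainly on the difference between the ages and are a description only. Of the 6 neutrophil markers measured, 0 rose and S100a9 fell (limma; 0 higher and 2 lower at an unadjusted p under 0.05), a call lost in each fit without 1 array.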
